A study of Mus musculus with 6 samples.

Results

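The microRNAs of the miR-99/100 and miR-125 families were examined in mouse liver under a soy diet. The rule took 10 mature arms by name (mmu-miR-99a-5p and the like, written here without the prefix mmu), miR-99a, miR-99b and miR-100 with miR-125a and miR-125b, out of 1907 mature microRNAs in the deposited count table. All 10 were in the table and all 10 had at least 4 reads in at least 3 libraries, as did 437 microRNAs in all. The study asked whether a soy-enriched diet changes the microRNAs of the liver. Soy livers came from 3 male mice of mixed background fed for 4 weeks a granulated chow of 75% regular food and 25% soy bean powder. Regular livers came from 3 male mice of the same background fed only the regular granulated food for 4 weeks. The labels give an age of 12 weeks for all 6 mice, which the study's methods word as the age of the mice put on the diets. Each library is whole liver RNA of a separate mouse, so that fewer cells of a type and less of a microRNA per cell cannot be told apart.

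A microRNA is cut from a hairpin as a short duplex. The arm that is loaded into the silencing complex is called the guide and the other arm is usually degraded. The guide finds its messenger RNAs mainly through its seed, bases 2 to 8, and lowers their translation or stability. The miR-125 family is the mammalian counterpart of lin-4 of Caenorhabditis elegans, which times larval development together with let-7. The miR-99/100 family is known for targeting Mtor and Igf1r in the insulin and growth signalling pathway. In human hepatocellular carcinoma, members of both families are often reduced.

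The arms are shown because shared seeds and near-identical bodies decide both their targets and how far short reads can separate them. The sequences are those of RefSeq for GRCm38.p6, found by name for 10 of the 10 members, written 5′ to 3′ with the seed in capitals. The miR-99/100 guide arms share the seed ACCCGUA.
miR-99a-5p: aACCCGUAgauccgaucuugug
miR-99b-5p: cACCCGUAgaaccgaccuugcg
miR-100-5p: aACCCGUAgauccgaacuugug
The miR-125 guide arms share the seed CCCUGAG, which miR-351-5p, a microRNA of the X chromosome that is no member of the families by name, carries too.
miR-125a-5p: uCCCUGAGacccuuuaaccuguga
miR-125b-5p: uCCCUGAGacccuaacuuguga
miR-351-5p: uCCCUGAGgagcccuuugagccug
The other arms fall into 4 seeds, with 1 seed common to the miR-99 arms.
miR-99a-3p: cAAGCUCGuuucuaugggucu
miR-99b-3p: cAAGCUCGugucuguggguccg
miR-125a-3p: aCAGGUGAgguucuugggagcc
miR-125b-1-3p: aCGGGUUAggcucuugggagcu
miR-125b-2-3p: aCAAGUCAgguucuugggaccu

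Counted from the 5′ end, miR-99a-5p and miR-100-5p differ at 1 of 22 positions, U16A, where the first letter is that of miR-99a-5p. miR-99a-5p and miR-99b-5p differ at 4 positions, A1C, U11A, U16C and U21C. A read of miR-99a-5p or miR-100-5p with an error at position 16, or one that ends before it, cannot be assigned with certainty, and how the authors treated such reads is not given in the sources used here. miR-125a-5p and miR-125b-5p are identical over their first 13 bases and then diverge. miR-10a-5p belongs to a related family with a shifted seed, and shares a run of 11 bases with miR-100-5p that starts at base 7 of miR-10a-5p and at base 6 of miR-100-5p. miR-10a-5p is shown for that overlap, with its own seed in capitals.
miR-10a-5p: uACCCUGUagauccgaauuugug

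The 10 arms come from 6 hairpins at 3 loci, each of which also holds a let-7 hairpin (GRCm38, GENCODE M21). On chromosome 17, plus strand, Mir99b (17830188 to 17830257), Mirlet7e (17830352 to 17830444) and Mir125a (17830812 to 17830879) lie within 692 bases. Mir99b and Mirlet7e are in an intron of the protein-coding gene Spaca6, and Mir125a overlaps an exon of an annotated Spaca6 transcript. On chromosome 16, plus strand, Mir99a (77598936 to 77599000), Mirlet7c-1 and Mir125b-2 (77646273 to 77646343) span 47408 bases, all in an intron of the noncoding host gene Mir99ahg. Mir125b-2 also overlaps an exon of the uncharacterised transcript C130023A14Rik. On chromosome 9, plus strand, Mir100 (41531425 to 41531504), Mirlet7a-2 and Mir125b-1 (41581926 to 41582002) span 50578 bases, in an intron of the noncoding genes 3110039I08Rik and Gm49317. Mir100 also overlaps an exon of Gm48742 on the opposite strand, and Mir125b-1 an exon of the same-strand transcript Gm28119. miR-125b-5p is made with the same sequence by Mir125b-1 and Mir125b-2, so its reads cannot be divided between chromosomes 9 and 16, whereas the 3p arms of these hairpins differ.

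Libraries held 5727546 to 12762916 microRNA reads, the fewest in regular replicate 3. A count of 0 allows up to 0.235 to 0.524 counts per 1000000 reads (CPM) of the library total (3 reads), which covers counting error only. Of 437 microRNAs tested by edgeR's quasi-likelihood test 0 passed at an adjusted p of 0.05, 22 had an unadjusted p under 0.05, and DESeq2 called 2 and limma-voom 0. Hepatocyte microRNAs (5 listed, miR-122-5p among them) summed to 286809 to 335117 in soy livers, as CPM scaled by the trimmed mean of M-values (TMM), as are all CPM below, and to 267534 to 351095 CPM in regular livers. The 6 listed mesenchymal microRNAs summed to 18657 to 24975 CPM under soy and 15887 to 23792 CPM under regular chow, and the 5 erythroid ones to 1406 to 1435 and 794 to 1901 CPM. The 4 muscle and neural microRNAs summed to 3.42 to 12 CPM in soy livers and 4.9 to 8.64 CPM in regular livers, with miR-124-3p at 0. The sums did not overlap for the 2 endothelial arms of miR-126a (1 with a mean above and 1 below 0 on the log2 fold scale). They were 20117 to 21090.2 CPM under soy and 14483 to 17938 CPM under regular chow. Nor did those of the 6 leukocyte microRNAs (5 with a mean above and 1 below 0), at 2706 to 3550.1 and 2067 to 2368 CPM. No marker in these lists was at 0 in every library except miR-124-3p, and 0 of those tested were called by edgeR (1 of the 4 muscle and neural microRNAs had enough reads for the test). The mesenchymal list holds miR-145a-5p, which the study reported as higher in soy. CPM ranges of the diets were apart for 1 mesenchymal, 1 endothelial, 2 leukocyte and 1 erythroid microRNA and 0 in the other lists, and for 12.8% of all microRNAs tested.

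The guide arms were moderately abundant in liver and their mean levels took the same order under both diets. Reads of different arms are compared as CPM without a length correction, since one read stands for a whole mature arm of 21 to 24 bases, and the efficiency of cloning each arm was not measured. miR-125a-5p stood highest, at rank 30 of 437 by mean CPM, and its lowest library (2257 CPM) was above the highest of miR-125b-5p (1297 CPM). miR-125b-5p at rank 46 and miR-99b-5p at rank 52 overlapped in level, from 716 to 1297 CPM and from 628 to 1040.2 CPM over the 6 libraries. miR-99a-5p, from 347 to 460.0 CPM, ranked 65, and miR-100-5p, from 159.8 to 329.6 CPM, ranked 80, without overlap between these neighbours. The 5 guide arms together took 0.609%, 0.621% and 0.601% of the reads of the soy libraries, against 0.669%, 0.419% and 0.509% in the regular libraries. The soy values sit within the spread of the regular ones.

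**Figure D1:**
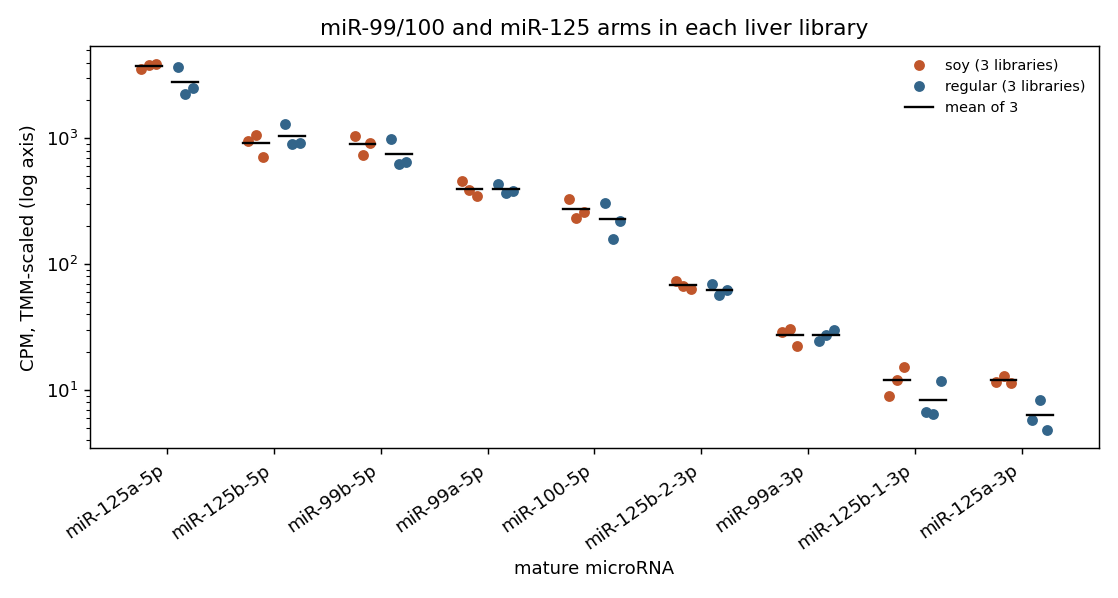
Level of 9 arms in each library as TMM-scaled CPM on a log axis, soy left of regular for each arm, with points for the 3 libraries of a diet and a line at their mean (miR-99b-3p, at 0 in 3 libraries, is left out). The diets overlap for every arm plotted except miR-125a-3p, at 11.4 to 12.9 CPM in soy livers and 4.8 to 8.4 CPM in regular livers.

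None of the 10 arms passed edgeR's test between the diets, as for the whole table, in which 0% were called (adjusted p 0.941 to 0.998 for the arms). None had an unadjusted p under 0.05 by edgeR, where 5.03% of all microRNAs did. Without regular replicate 1, edgeR gave 3 of the 10 arms such a p, and 29 of all 437 microRNAs. With DESeq2 0 of the 10 arms had one (5.49% of all microRNAs), with limma-voom 1 (6.18%) and with limma on the deposited log2 values 1 (6.86%), the arms being miR-125a-5p and miR-125a-3p in turn. The mean log2 fold change, soy over regular, was above 0 for 8 of the 10 arms, and 48.5% of all microRNAs were above 0. The 8 include miR-99a-5p at 0.0023, whose sign turned under other scalings, and miR-99b-3p at 2.68 ± 2.32 (SE). The median of the 10 arms was 0.26, and that of all microRNAs was -0.02. The median absolute log2 fold change was 0.26 for the arms and 0.36 for all microRNAs. The arms of one hairpin or locus share a transcript, so that these 10 values are not independent. The CPM ranges of the diets were apart for 1 of 10 arms, miR-125a-3p, and for 12.8% of all microRNAs (7.32% higher and 5.49% lower in soy).

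**Figure D2:**
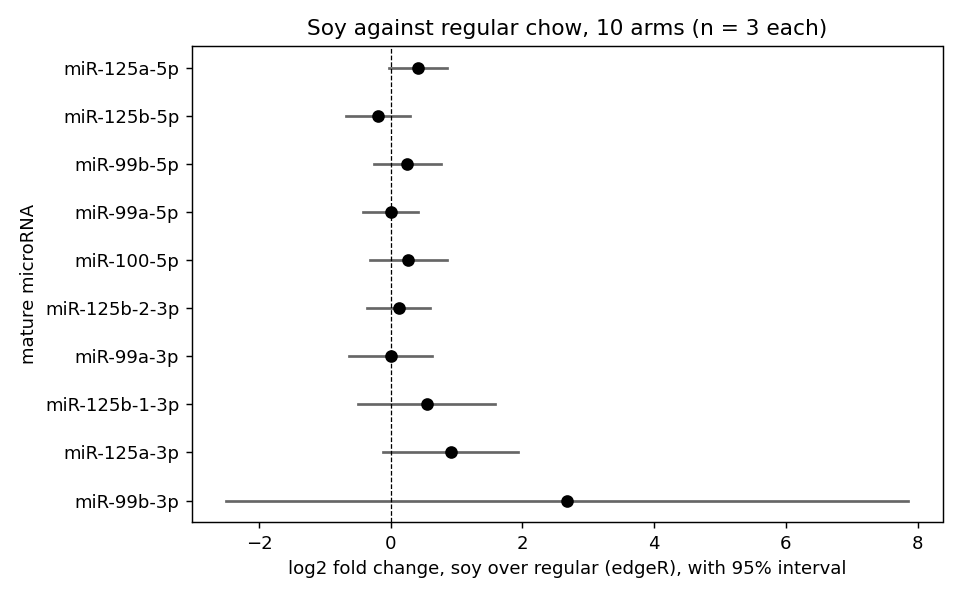
Log2 fold change of CPM, soy over regular, from edgeR for the 10 arms, with points for the estimate and bars for its 95% interval (3 libraries a diet). Every bar crosses 0, and the bar of miR-99b-3p runs from -2.50 to 7.86.

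miR-125a-5p (mmu-miR-125a-5p), the most abundant guide arm of both families, had the smallest p among the members in edgeR's test of all 6 libraries. It had 43497, 38090 and 38714 reads in the soy mice, against 37486, 22584 and 15560 in the regular mice, which is 3538, 3790.1 and 3878 CPM in soy livers against 3664, 2257 and 2490.1 CPM in regular livers. The soy livers lay close together, and regular replicate 1 reached their level while the other regular livers were lower. The mean level was 3735 ± 177 CPM under soy and 2804 ± 754 CPM under regular chow (SD, n = 3 each), a log2 fold change of 0.41 ± 0.20 (SE, 95% interval -0.03 to 0.85, edgeR adjusted p = 0.941, unadjusted 0.0623). limma-voom gave an unadjusted p of 0.0399 and an adjusted p of 0.706. Without regular replicate 1 the log2 fold change was 0.73 by edgeR (adjusted p = 0.428), and it ranged from 0.28 to 0.73 over the libraries left out in turn.

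miR-125a-3p (mmu-miR-125a-3p), the minor arm of the same hairpin, was the member whose diets did not overlap. It had 141, 130 and 114 reads in soy mice against 59, 84 and 30 reads in regular mice. On the CPM scale these were 11.5, 12.9 and 11.4 in soy livers and 5.77, 8.4 and 4.8 in regular livers, every soy liver above every regular one. The log2 fold change was 0.91 ± 0.46 (SE, 95% interval -0.11 to 1.93, edgeR adjusted p = 0.941), and 0.78 to 1.17 with a library left out. At these counts the exact (Clopper-Pearson) 95% interval of a single library was 9.3 to 13 CPM of its total in soy replicate 1. That of regular replicate 2 was 6.49 to 10.1. These intervals of the nearest libraries overlap, which does not test whether the libraries differ beyond counting error. The hairpin Mir125a (chromosome 17, 17830812 to 17830879, plus strand) is shown with both arms in capitals, since each stood higher on average in soy.
Mir125a: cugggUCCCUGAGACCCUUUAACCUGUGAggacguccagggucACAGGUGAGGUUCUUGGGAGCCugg
The summed endothelial and leukocyte microRNAs, given above, were also apart between the diets and higher in soy, and their part in the miR-125a values was not tested.

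miR-125b-5p (mmu-miR-125b-5p), known for its roles in blood-forming cells, was the guide arm with a lower mean in soy. It had 952, 1067 and 716 CPM in soy livers against 1297, 908 and 925 CPM in regular livers. The ranges overlapped, with the highest value in regular replicate 1 and the lowest in soy replicate 3. The log2 fold change was -0.19 ± 0.22 (SE, 95% interval -0.68 to 0.29, edgeR adjusted p = 0.982), and its sign turned to 0.07 without regular replicate 1.

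The share of miR-125a-5p among the reads of both miR-125 guide arms was higher in every soy library. It was 78.8%, 78% and 84.4% in soy livers against 73.9%, 71.3% and 72.9% in regular libraries. This share is taken within a library and so does not depend on how libraries are scaled. The mean was 80.4% ± 3.48 in soy livers and 72.7% ± 1.28 in regular livers (SD, n = 3 each), a difference of 7.72 percentage points (two-sided exact permutation p = 0.1, the smallest that 3 against 3 can give, and Benjamini-Hochberg 0.48 over 12 ratios and shares). The difference was 5.72 to 8.90 points with a library left out. Its sign could not turn there, since the diets did not overlap. It was the 1 measure of the 12 whose diets did not overlap. For any 1 measure, a share of 0.1 of the 20 assignments separates the diets fully, so that 1 in 12 does not stand out.

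miR-351-5p, which carries the miR-125 seed in mouse from a cluster on the X chromosome, was at 1196, 1277 and 910.5 CPM in soy livers and 1562, 1126 and 1969 CPM in regular livers. Its log2 fold change was -0.46 ± 0.23 (SE, edgeR adjusted p = 0.941). It took 21%, 20.8% and 16.5% of the reads with this seed in soy libraries against 23.9%, 26.2% and 36.6% in regular libraries, a share looked at after its values were seen and given without a test. All reads with the seed summed to 5775 ± 324 CPM in soy livers and 5399.7 ± 1116 CPM in regular livers (SD, n = 3 each), with overlapping ranges. miR-6367 and miR-6394, listed with the same seed, had 0 reads in every library.

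**Figure D3:**
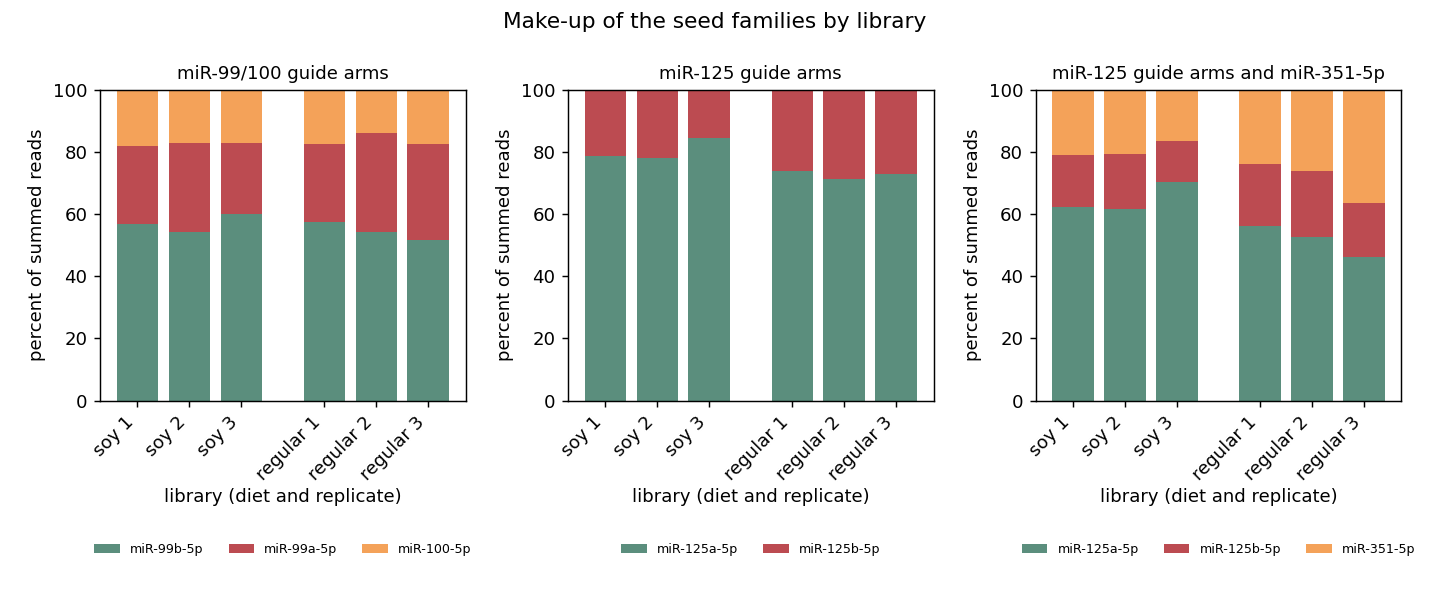
Make-up of the guide arms by library as percent of their summed reads, with 3 soy libraries left of 3 regular ones in each panel. The middle panel shows miR-125a-5p at 78% to 84.4% in soy livers and 71.3% to 73.9% in regular libraries, and the right panel adds miR-351-5p, at 16.5% to 21% in soy livers and 23.9% to 36.6% in regular libraries.

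Among the miR-99/100 guide arms, miR-99b-5p, from the locus of miR-125a, was the most abundant. It stood at 1040.2, 731 and 919.7 CPM in soy livers against 995, 628 and 646 CPM in regular livers. The diets overlapped through regular replicate 1, the only regular liver above soy replicate 2. Its log2 fold change was 0.25 ± 0.23 (SE, 95% interval -0.26 to 0.76, edgeR adjusted p = 0.982). It ranged from 0.13 without soy replicate 1 or regular replicate 2 to 0.57 without regular replicate 1.

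miR-100-5p, from the locus of miR-125b-1, stood at 329.6, 232 and 262 CPM in soy livers against 304, 159.8 and 219.7 CPM in regular livers. Again regular replicate 1 reached into the soy range. The log2 fold change was 0.27 ± 0.26 (SE, 95% interval -0.31 to 0.85, edgeR adjusted p = 0.982), 0.61 without regular replicate 1 and 0.07 without regular replicate 2.

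miR-99a-5p (mmu-miR-99a-5p), from the locus of miR-125b-2, had equal means to the precision given. It stood at 460.0, 385 and 347 CPM in soy livers against 435, 371 and 383 CPM in regular livers, or 397 ± 57.5 CPM in soy livers and 397 ± 34.2 CPM in regular livers (SD, n = 3 each). The log2 fold change was 0.0023 ± 0.19 (SE, edgeR adjusted p = 0.998), with a 95% interval of -0.42 to 0.42. The sign turned under other scalings.

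The make-up of the miR-99/100 guide reads overlapped between the diets for each arm. miR-99b-5p made up 57.1% ± 2.96 in soy livers and 54.4% ± 2.83 in regular livers, miR-99a-5p 25.5% ± 2.94 and 29.3% ± 3.67, and miR-100-5p 17.4% ± 0.49 and 16.3% ± 2.17 (SD, n = 3 each). The two-sided exact permutation p was 0.4, 0.3 and 0.6. The 3 arms summed to 1568 ± 244 CPM in soy livers and 1381 ± 309.8 CPM in regular livers (SD, n = 3 each). miR-10a-5p, the relative of shifted seed, was far more abundant, at 48302 ± 8297 CPM in soy livers and 40813 ± 3729.6 CPM in regular livers, and miR-10b-5p was at 796 ± 649 and 472 ± 203 CPM (SD, n = 3 each).

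The other arms were minor products in every library, to very different degrees. The 3p arm took 5.33% to 7.34% of the reads of miR-99a and 5.55% to 9.93% of those of miR-125b, but 0.157% to 0.371% of those of miR-125a and 0% to 0.335% of those of miR-99b, and miR-100-3p had 0 reads throughout. Both hairpins of chromosome 17 thus gave a lower share of 3p reads than miR-99a or miR-125b in every library. miR-125b pools its hairpins on chromosomes 9 and 16 in this share.

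miR-99a-3p was at 28.9, 30.4 and 22.4 CPM in soy livers against 24.5, 27.6 and 29.8 CPM in regular livers, with overlapping ranges and a log2 fold change of -0.0015 ± 0.28 (SE, edgeR adjusted p = 0.998), a sign that turned with the scaling. The log2 ratio of its 5p to its 3p reads was 3.87 ± 0.18 in soy livers and 3.86 ± 0.25 in regular livers (SD, n = 3 each, exact permutation p = 1, two-sided). The ranges of the arms and of their ratio overlapped between the diets.

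miR-99b-3p, the rarest arm, had 43, 0 and 15 reads in soy livers against 0, 0 and 5 reads in regular libraries. It was unseen in soy replicate 2, where 0 reads allow up to 0.299 CPM of the library total, although miR-99b-5p had 7343 reads there. Its fitted log2 fold change of 2.68 ± 2.32 (SE, edgeR adjusted p = 0.982) depends on the treatment of zeros and ranged from 1.54 to 7.16 with a library left out. Counts ranged down to 0 within each diet.

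The 3p arms of miR-125b tell its hairpins apart. miR-125b-2-3p, from chromosome 16, was at 74.1, 66.5 and 63.6 CPM in soy livers against 69.4, 56.4 and 62.1 CPM in regular livers, a log2 fold change of 0.12 ± 0.21 (SE, edgeR adjusted p = 0.982). miR-125b-1-3p, from chromosome 9, was at 8.95, 12 and 15.3 CPM in soy livers against 6.75, 6.4 and 11.7 CPM in regular livers, 0.55 ± 0.47 (SE, edgeR adjusted p = 0.982). The chromosome 16 hairpin gave 89.2%, 84.7% and 80.6% of these 3p reads in soy livers and 91.1%, 89.8% and 84.2% in regular libraries. The share overlapped between the diets, and whether it follows the origin of the miR-125b-5p reads was not tested.

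For 4 of the 5 arm ratios the mean of 5p over 3p reads was lower in soy, but the ranges overlapped in each. The log2 difference, soy minus regular, was -0.50 for miR-125a, -0.76 for miR-125b-5p over miR-125b-1-3p, -0.32 for miR-125b-5p over miR-125b-2-3p and -2.07 for miR-99b, with two-sided exact permutation p-values of 0.4, 0.3, 0.2 and 0.3. Both miR-125b ratios share the miR-125b-5p reads. The difference for miR-125a was -0.24 without regular replicate 1 and -0.86 without regular replicate 2. That for miR-125b-1-3p was -0.41 without soy replicate 3 and -0.47 without regular replicate 1, and that for miR-125b-2-3p -0.20 without soy replicate 3. The value for miR-99b rests on counts near 0 and ran from -3.78 without soy replicate 2 to -0.96 without soy replicate 1. The Benjamini-Hochberg value was 0.48 for each of these.

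Of the ratios of guide arms from a shared locus, only miR-99b-5p over miR-125a-5p has both arms from that locus alone. The hairpins Mir99b and Mir125a lie 554 bases apart. The reads of miR-99b-5p over those of miR-125a-5p were 0.294, 0.193 and 0.237 in soy livers and 0.272, 0.278 and 0.259 in regular libraries. This ratio thus varied mainly among the soy mice. miR-99a-5p over miR-125b-5p was 0.483, 0.361 and 0.485 in soy livers and 0.336, 0.409 and 0.415 in regular libraries, and miR-100-5p over miR-125b-5p 0.346, 0.217 and 0.366 and 0.235, 0.176 and 0.238. Each of these ratios overlapped between the diets, with two-sided exact permutation p-values of 0.4, 0.3 and 0.3. Since miR-125b-5p comes from both hairpins, its ratios mix the loci.

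Over the 6 libraries, the guide arms that correlated most closely lay on different chromosomes. log2 CPM of miR-99b-5p (chromosome 17) and miR-100-5p (chromosome 9) correlated at Pearson r = 0.92 (exact permutation p = 0.00278) and Spearman rho = 1.0 (exact permutation p = 0.00278, the smallest that 720 pairings can give), both with a Benjamini-Hochberg value of 0.0417 over 15 pairs. Pearson r was 0.96 without the 2 libraries farthest from the median of miR-99b-5p, 0.90 for deviations from each diet's mean and 0.93 on library totals. The points share the depth and scaling of their library, and the arms share a seed and most of their bases.

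The pairs of shared locus did not pass this test. miR-99b-5p and miR-125a-5p gave r = 0.78 and rho = 0.49 (exact permutation p = 0.0833 and 0.356, Benjamini-Hochberg 0.417 and 0.699), with r = 0.73 without the 2 farthest libraries. Regular replicates 2 and 3 were low in both arms of this pair and lay apart from the other 4 libraries in miR-125a-5p. miR-99a-5p and miR-125b-5p gave r = 0.66 and rho = 0.83 (exact permutation p = 0.151 and 0.0583, Benjamini-Hochberg 0.463 and 0.438), with r = 0.94 without the 2 farthest libraries. miR-100-5p and miR-125b-5p gave r = 0.26 and rho = 0.43 (exact permutation p = 0.66 and 0.419, Benjamini-Hochberg 0.946 and 0.699), with r = 0.38 without the 2 farthest. The other guide pairs of different chromosomes did not pass either. Among them miR-100-5p and miR-125a-5p gave r = 0.78 and rho = 0.49. miR-99a-5p gave r = 0.58 with miR-99b-5p, 0.66 with miR-100-5p and 0.23 with miR-125a-5p. miR-125b-5p gave r = 0.16 with miR-99b-5p and 0.13 with miR-125a-5p. Whether any of these correlations differs from that of miR-99b-5p and miR-100-5p was not tested.

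**Figure D4:**
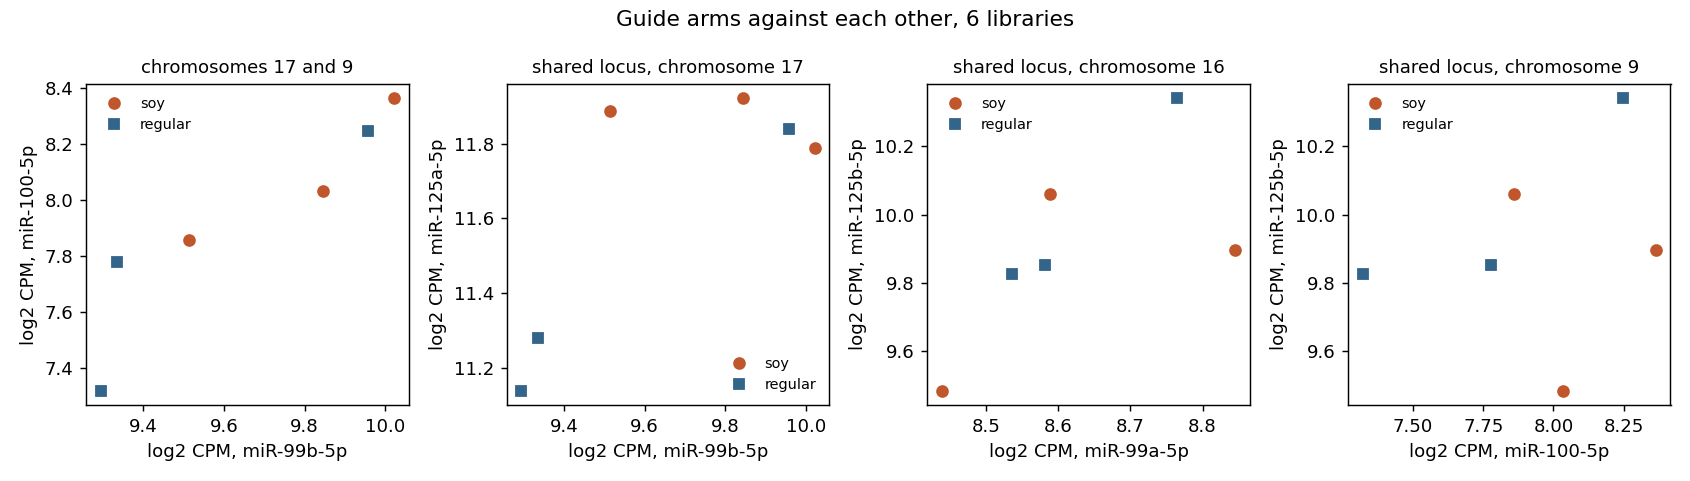
log2 CPM of 4 pairs of guide arms over the 6 libraries (circles soy, squares regular). miR-99b-5p and miR-100-5p, from chromosomes 17 and 9, keep the same order in all 6 libraries (r = 0.92, rho = 1.0). The pairs of shared locus have r from 0.26 to 0.78 and rho from 0.43 to 0.83.

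The let-7 arms of the 3 loci showed no link to their neighbours that passed the test. miR-99a-5p and let-7c-5p gave r = 0.07 and rho = -0.26, miR-125b-5p and let-7c-5p r = 0.47 and rho = 0.09, and miR-100-5p and let-7a-5p r = 0.02 and rho = -0.09. miR-99b-5p gave r = -0.17 and rho = -0.60 with let-7e-5p, and miR-125a-5p r = 0.15 and rho = 0.26 with it (exact permutation p from 0.361 to 0.983 for r and from 0.242 to 0.919 for rho over these 5 pairs, Benjamini-Hochberg 0.774 to 0.983 and 0.699 to 0.919). Without the 2 libraries farthest from the median of the first arm, the 5 values of r were 0.24, -0.43, 0.90, 0.18 and 0.91 in the order given, so that r moved widely with the libraries kept. let-7a-5p and let-7c-5p are each made by more than one hairpin in the mouse, so only let-7e-5p is particular to its locus.

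let-7e-5p, the neighbour of miR-99b and miR-125a, was at 285, 412 and 646 CPM in soy livers against 290.2, 418 and 325 CPM in regular livers, a log2 fold change of 0.38 ± 0.29 (SE, edgeR adjusted p = 0.982), highest in soy replicate 3. let-7c-5p had a log2 fold change of -0.25 ± 0.15 and let-7a-5p of -0.16 ± 0.15 (SE, edgeR adjusted p = 0.982 for both). Their 3p arms were rare, with at most 50 reads for let-7c-1-3p, 109 for let-7e-3p and 18 for let-7a-2-3p in any library. let-7a-2-3p had too few reads to be tested, and none of the other let-7 arms was called by edgeR.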

How the data were processed

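Small RNA libraries (TruSeq kit, single-end reads, Illumina NextSeq) were made from 6 livers. The authors assigned reads to mature microRNAs and deposited whole read counts. Which aligner, build and miRBase release they used is not given in the sources used here. The deposited log2 values are counts of at least 4 reads scaled by each library's total over those microRNAs. They are not scaled by the DESeq2 geometric mean that the study's methods name. For their use as an alternative, values absent for fewer than 4 reads were set to the lowest deposited value, 1.65. Counts were tested with edgeR 4.0.16 (R 4.3.3, quasi-likelihood, TMM, Benjamini-Hochberg adjustment at 0.05) over 437 microRNAs with at least 4 reads in 3 libraries. The study names DESeq2, which was an alternative (DESeq2 1.42.0), as was limma-voom (limma 3.58.1). Ratios had 0.5 reads added and were tested by exact permutation over 20 assignments. The code of the fit was checked on simulated counts, and no result given here draws on them. Libraries correlated at 0.962 to 0.98 within diets and 0.964 to 0.98 between them (log2 CPM plus 1), and no replicate pair agreed within sampling noise (chi-square per degree of freedom of at least 253), a check only for a library deposited under 2 labels. Named were all 10 members, the let-7 arms of their loci, miR-100-3p, microRNAs sharing a guide seed, and miR-10a-5p and miR-10b-5p. Members and lists were chosen with earlier results of these data known. No batch was given in the labels.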

Additional observations from a re-analysis of the deposited data

How the results depend on the processing

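No member was called under any of the 14 alternatives, with adjusted p of at least 0.428. The count of members with an unadjusted p under 0.05, 0 by edgeR, was 3 without regular replicate 1 and 1 each without a filter, with the replicate block, in limma-voom and on the deposited log2 values, and 0 under the other alternatives. The whole table gave 29, 36, 31, 27 and 30 such microRNAs in that order, of 716 without a filter and of 437 otherwise. Over all microRNAs, where edgeR called 0, DESeq2 called 2, edgeR without a filter 8 of 716, and limma on the deposited log2 values 1. Both diets carry replicate numbers, and the labels do not say whether these pair the mice. Same-numbered livers did not deviate together (r = 0.133, -0.0823 and 0.04), which cannot settle the pairing with 3 mice a diet. With a replicate block edgeR called 5 over all microRNAs, miR-125a-5p stood at 0.45 (adjusted p = 0.434) and 0 members were called. With a library left out, 0 microRNAs and 0 members were called each time.

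Of 139 member fold changes under alternatives, 122 kept their sign. The reversals were those of miR-99a-5p and miR-99a-3p, whose log2 fold change lay near 0, and 1 of miR-125b-5p. miR-99a-5p was at -0.05 on library totals, -0.0025 in limma-voom, -0.06 on the deposited log2 values, -0.0039 with the replicate block, and -0.12 to 0.16 with a library left out. miR-99a-3p was at 0.01 with DESeq2's size factors and in DESeq2, 0.08 without a filter, 0.03 at 10 reads, 0.0048 in limma-voom, and -0.09 to 0.12 with a library left out. miR-125b-5p ranged from -0.32 to 0.07 with a library left out. The diet difference in the log2 ratio of miR-99a arms ranged from -0.08 to 0.15, and that in the share of miR-100-5p from -0.11 to 1.78 points. Without the 2 farthest libraries, r turned to -0.78 for miR-99a-5p with miR-99b-5p, -0.32 with miR-100-5p and -0.37 with miR-125a-5p, to -0.48 for miR-125a-5p with miR-125b-5p, to -0.43 for miR-125b-5p with let-7c-5p and to 0.18 for miR-99b-5p with let-7e-5p, and with the diet means removed it was -0.19 for miR-125a-5p with let-7e-5p. The cause was not tested. miR-99b-3p had no value at 10 reads. The 3 mice a diet limit the precision to the intervals given.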
